A study of Mus musculus with 18 samples.

Results

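The messenger RNA of 9 genes that the intestinal epithelium makes in defense against bacteria was followed in the small intestine of C57BL/6 mice. They were the Reg lectins Reg1, Reg3a, Reg3b and Reg3g, the oxidase pair Duox2 and Duoxa2, and the serum amyloid A genes Saa1, Saa2 and Saa3. They were chosen by symbol, 9 of the 21928 gene symbols in the table, and the values of all transcripts of a symbol were summed. The 18 libraries, all from wild-type mice, fell into 6 groups of 3. The male groups were mice given simvastatin, an inhibitor of cholesterol synthesis, after 12 Gy total abdominal irradiation (TAI) (MT), mice given TAI alone (MTAI) and mice without irradiation (Mcon). The female groups were mice fed a high-fat diet (HFD) following TAI (Ffat), mice given TAI alone (FTAI) and mice without irradiation (Fcon). Groups given either treatment without TAI, male HFD mice and female simvastatin mice were not analysed here, so that sex and treatment cannot be told apart where MT and Ffat mice are set side by side. The tissue was collected at day 21 after irradiation. The paper's discussion gives 15 days as the length of HFD feeding in irradiated females. Its main text does not place the start or end of this feeding. Whether Ffat mice were still on the diet at sampling is thus unknown. Neither the mice's age nor the dose of simvastatin is given for these libraries in the sources used here. Values are FPKM, fragments per kilobase of transcript, scaled to the mapped fragments of the library.

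Reg3b and Reg3g are secreted C-type lectins of enterocytes and Paneth cells, and Reg3g kills Gram-positive bacteria and holds them off the villus surface. Both are induced by bacteria through MyD88 in epithelial cells and through interleukin-22, which group 3 innate lymphoid cells release and which acts through STAT3. Duox2 is a dual oxidase that releases hydrogen peroxide at the apical surface of enterocytes, and Duoxa2 is the maturation factor without which it does not leave the endoplasmic reticulum. Serum amyloid A proteins carry retinol and lipids, with Saa1 and Saa2 made mainly by the liver in the acute phase and Saa3 made locally in tissues.

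The libraries were of like size: FPKM summed to between 390703 and 417937, 10540 to 11752 genes reached 1 FPKM, and the depth read from the steps between low values lay between 0.785 and 1.18 times that of Fcon replicate 1. Y-linked genes did not exceed 0.0205 FPKM in any of the 9 female libraries, and none of the 9 male ones had less than 5.47 FPKM. FTAI replicate 3 stood apart from the rest: its 10 Paneth cell markers were all the highest of the 18 libraries, as were 5 of 6 markers of the distal small intestine, and of 7 markers of the proximal small intestine 3 were the lowest and 1 the highest. Differences of named genes that rest on it are given with and without it. Nothing in the labels ties the libraries to separate litters or cages, so that the p-values measure the spread between these samples. In whole tissue, fewer cells of a type and less RNA per cell cannot be told apart.

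The levels of the 9 genes covered a wide range. Reg3b, with a mean of 2713 FPKM over the 18 libraries, was rank 14 of all genes, and Reg3g, with 1571 FPKM, was rank 25. Reg1 averaged 134 FPKM and Reg3a 84.0 FPKM. Duox2 averaged 15.4 FPKM and Duoxa2 5.19 FPKM. Saa3 averaged 0.985 FPKM and Saa1 0.608 FPKM, and Saa2 was listed at 0 in 16 of 18 libraries. A gene entered the comparisons if 3 or more libraries had 1 FPKM or more of it, which took in 11767 genes and 8 of the 9 members. Saa1 reached 1 FPKM in exactly 3 libraries and Saa3 in 5, and Saa2 in none, so that it was left out of the tests.

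The genes stand in 3 clusters of the mouse genome (GRCm38, GENCODE annotation). The Reg genes lie within 98.2 kb of chromosome 6: Reg3b at chr6:78370657-78373466, Reg3a at chr6:78380709-78383827, Reg1 at chr6:78422711-78428667 and Reg3g, on the opposite strand, at chr6:78466269-78468872. Their neighbors in the same cluster were almost silent, with 0.410 FPKM for Reg3d and 0.0219 FPKM for Reg2 on average. Duox2 at chr2:122279247-122298449 and Duoxa2 at chr2:122298900-122302885 run away from each other with GENCODE starts 451 bases apart. Saa3, Saa1 and Saa2 lie within 42.3 kb of chromosome 7. The main transcripts of Saa1 and Saa2 were identical at 94.4% of aligned bases, so that their FPKM can trade reads and are uncertain as single genes. The 3 Reg3 transcripts were 76.9% to 78.2% identical to each other.

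The 250 bases before the RefSeq start (GRCm38.p6) are shown for the 3 Reg3 genes, whose levels differed in order between groups, and for the Duox2 and Duoxa2 pair. All 9 members matched the RefSeq table. For Reg1, Reg3b, Duox2, Saa2 and Saa3 the RefSeq start lies inside the gene as GENCODE places it. Their windows thus fall partly or wholly within the GENCODE gene. Capitals mark matches, on either strand, to TTCNNNGAA (the STAT motif), GGG followed after any 5 bases by CC (an NF-kB motif), TTNNGNAA (a C/EBP motif) and TATAAA (the TATA box). No matches overlapped in these windows.
Reg3b, chr6:78370635-78370884, strand plus: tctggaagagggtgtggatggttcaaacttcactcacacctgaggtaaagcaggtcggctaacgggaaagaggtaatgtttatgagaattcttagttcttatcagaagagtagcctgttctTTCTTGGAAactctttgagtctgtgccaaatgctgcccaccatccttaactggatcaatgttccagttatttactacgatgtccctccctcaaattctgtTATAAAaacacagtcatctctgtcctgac
Reg3g, chr6:78468875-78469124, strand minus: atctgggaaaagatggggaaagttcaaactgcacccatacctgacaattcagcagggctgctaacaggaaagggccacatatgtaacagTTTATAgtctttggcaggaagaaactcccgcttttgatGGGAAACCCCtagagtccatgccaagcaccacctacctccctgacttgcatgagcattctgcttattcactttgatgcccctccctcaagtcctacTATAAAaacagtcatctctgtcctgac
Reg3a, chr6:78380459-78380708, strand plus: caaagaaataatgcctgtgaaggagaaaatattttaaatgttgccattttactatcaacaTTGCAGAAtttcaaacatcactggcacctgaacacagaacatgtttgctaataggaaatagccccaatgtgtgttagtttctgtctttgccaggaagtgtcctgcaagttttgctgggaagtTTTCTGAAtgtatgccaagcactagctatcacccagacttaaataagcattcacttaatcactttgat
Duox2, chr2:122298228-122298477, strand minus: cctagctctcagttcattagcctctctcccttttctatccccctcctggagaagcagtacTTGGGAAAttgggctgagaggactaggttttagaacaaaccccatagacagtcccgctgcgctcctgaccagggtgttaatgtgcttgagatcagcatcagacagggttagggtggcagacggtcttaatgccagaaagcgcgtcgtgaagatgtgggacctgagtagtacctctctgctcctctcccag
Duoxa2, chr2:122298650-122298899, strand plus: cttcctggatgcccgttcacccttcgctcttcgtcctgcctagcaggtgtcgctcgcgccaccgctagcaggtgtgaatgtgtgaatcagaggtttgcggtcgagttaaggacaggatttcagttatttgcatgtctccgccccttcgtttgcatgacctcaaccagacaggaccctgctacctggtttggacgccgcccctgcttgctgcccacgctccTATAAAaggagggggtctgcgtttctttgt

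Of the 9 members, only the Reg3b window held the STAT letters, 129 bases before the start, and 7.0% of 32851 RefSeq promoter windows of the same length hold them. NF-kB letters were found in the Reg3g window, 123 bases before the start, and in those of Saa1 and Saa2, against 45.8% of all windows. C/EBP letters were found for 5 members (Reg3a, Duox2, Saa1, Saa2 and Saa3), against 36.8% of all windows. TATAAA stood 27 to 30 bases before the start of Reg3g, Reg3b, Reg1 and Duoxa2, and once more on the other strand of Reg3g, 161 bases before its start, while 12.4% of all windows hold it anywhere. The TATA box was added to the motifs after the sequences had been seen. The Reg3b and Reg3g windows were identical at 70.8% of 250 bases when aligned with gaps. The Reg3a window was 61.6% identical to that of Reg3g and 59.2% identical to that of Reg3b, against 55.2% to 61.2% for the 26 pairs of members from different families. The matches are letters only, and binding was not measured.

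In male mice, Reg3b and Reg3g were highest and Reg3a was lowest after TAI with simvastatin. Reg3b had 3964, 5595 and 5895 FPKM in MT mice, against 3007, 2327 and 3675 FPKM in MTAI mice and 1734, 2725 and 1505 FPKM in Mcon mice. All 3 MT libraries were above every other library of the series, whereas MTAI and Mcon libraries overlapped. Reg3g, the lectin directed at Gram-positive bacteria, had 2430, 2805 and 3095 FPKM in MT mice, against 2112, 1660 and 2048 FPKM in MTAI mice and 1669, 2215 and 1289 FPKM in Mcon mice. Here too the 3 MT libraries were above all others. Reg3a had 45.1, 45.6 and 38.3 FPKM in MT mice, against 57.1, 78.8 and 72.2 FPKM in MTAI mice and 88.3, 90.1 and 93.4 FPKM in Mcon mice. The male groups did not overlap for Reg3a, and MT mice held the 3 lowest values of the series.

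**Figure D1:**
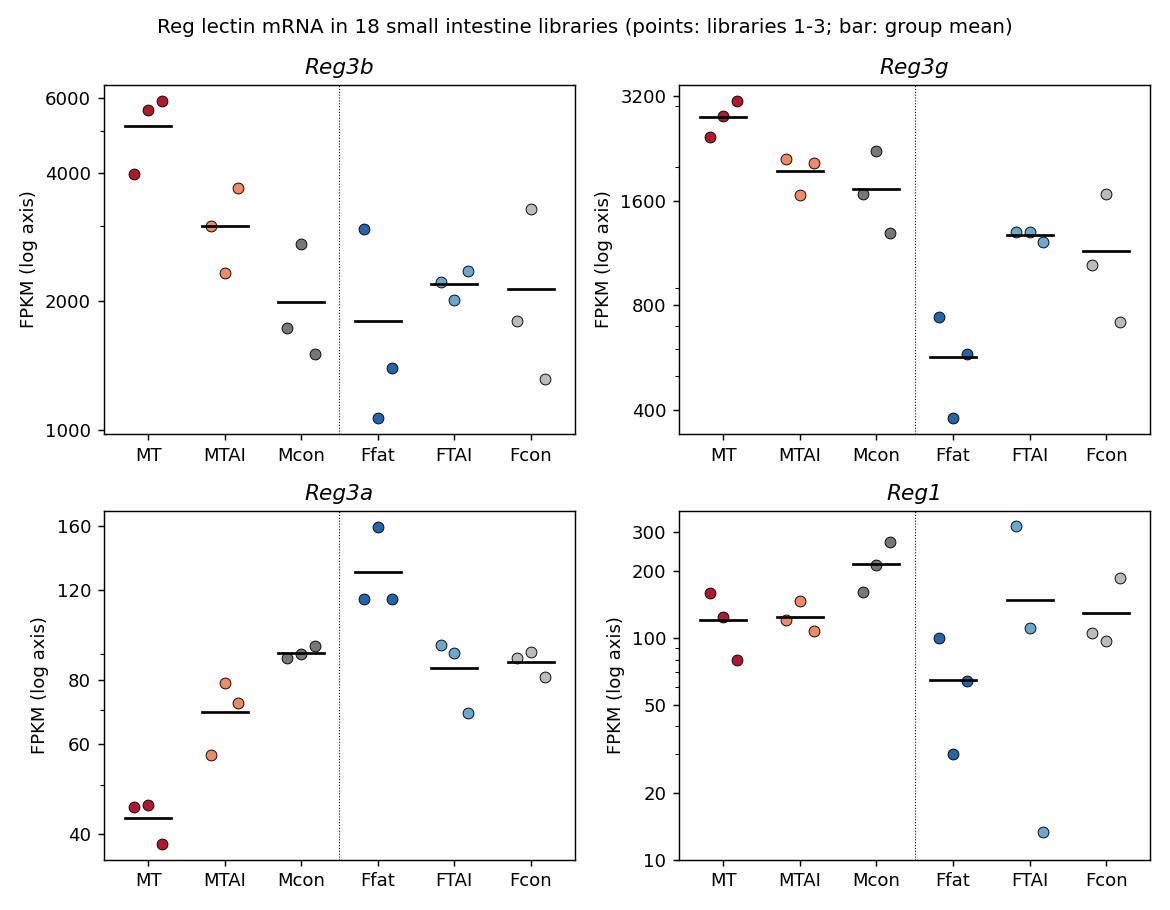
FPKM of Reg3b, Reg3g, Reg3a and Reg1 (log axes) in each of the 18 libraries, with points for libraries 1 to 3 of a group from left to right and bars for group means; male groups are left of the dotted line. The 3 MT libraries are the highest for Reg3b (3964 to 5895 FPKM) and Reg3g (2430 to 3095 FPKM) and the lowest for Reg3a (38.3 to 45.6 FPKM), and Ffat libraries are the lowest for Reg3g apart from 1 overlap with Fcon mice.

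Groups were compared with limma on log2(FPKM + 1), which understates the change of genes of few FPKM, with p-values adjusted by the Benjamini-Hochberg method over all genes tested and a threshold of 0.05. In MT against Mcon mice, 2 of the 8 members tested passed, while 5.37% of all genes did. Reg3a fell by 1.06 ± 0.14 (SE) on the log2 scale (adjusted p = 0.000414), to 43.0 ± 4.11 FPKM in MT mice, against 90.6 ± 2.56 FPKM in Mcon mice (SD, n = 3 each). Reg3b rose by 1.40 ± 0.36 (adjusted p = 0.0347), to 5151 ± 1039 FPKM in MT mice, against 1988 ± 649 FPKM in Mcon mice. Reg3g differed by 0.72 ± 0.28 (adjusted p = 0.17) and did not pass, although the groups did not overlap. Non-overlapping groups were seen for 5 of the 8 members, while 25.4% of all genes had them. The call for Reg3a held when any 1 library was left out and under all 12 other settings, with log2 differences of −1.11 to −0.98. That for Reg3b was lost without MT replicate 1, 2 or 3 (adjusted p = 0.0532, 0.0965 and 0.136) or Mcon replicate 1 or 3 (0.0952 and 0.13), and held under 8 of 12 other settings.

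Against TAI alone, 1 of the 8 members passed in MT mice, while 0.697% of all genes did. Reg3a fell by 0.67 ± 0.14 (adjusted p = 0.0436), to 43.0 FPKM in MT mice, against 69.4 ± 11.1 FPKM in MTAI mice. The call was lost without MT replicate 1, 2 or 3 (adjusted p = 0.118, 0.0725 and 0.233) or MTAI replicate 2 or 3 (0.248 and 0.184), and held under 6 of 12 other settings. Reg3b averaged 5151 FPKM in MT mice and 3003 ± 674 FPKM in MTAI mice, with a log2 difference of 0.78 (95% interval 0.01 to 1.55, adjusted p = 0.333). Reg3g averaged 2776 ± 334 FPKM in MT mice and 1940 ± 244 FPKM in MTAI mice, with a difference of 0.52 (−0.07 to 1.11, adjusted p = 0.376). Neither pair of groups overlapped, and 5 of the 8 members had non-overlapping groups here, while 25.4% of all genes had them. TAI alone in males left no member past the threshold in limma, where 2.1% of all genes passed. Reg3a averaged 69.4 FPKM in MTAI mice and 90.6 FPKM in Mcon mice (log2 difference −0.39, adjusted p = 0.235). Reg3b averaged 3003 FPKM in MTAI mice and 1988 FPKM in Mcon mice (0.62, adjusted p = 0.562).

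In female mice, HFD after TAI went with low Reg3g and high Reg3a. Reg3g had 742, 379.8 and 582 FPKM in Ffat mice, against 1303, 1296 and 1219 FPKM in FTAI mice and 1047, 1666 and 716.5 FPKM in Fcon mice. All Ffat libraries were below all FTAI libraries, and 1 of them was above the lowest Fcon library. Reg3a had 115.1, 159.9 and 115.3 FPKM in Ffat mice, the highest 3 values of the series, against 93.8, 90.5 and 69.1 FPKM in FTAI mice and 88.2, 90.8 and 81.1 FPKM in Fcon mice. Reg3b had 2947, 1066 and 1397 FPKM in Ffat mice, against 2223, 2012 and 2349 FPKM in FTAI mice and 1801, 3298 and 1319 FPKM in Fcon mice. Ffat replicate 1 was above the FTAI libraries and the other Ffat libraries were below them.

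Against FTAI mice, 4 of the 8 members passed the test in Ffat mice, 1 higher and 3 lower, while 3.16% of all genes passed, 1.74% higher and 1.42% lower, and 5 members had non-overlapping groups, while 17.5% of all genes had them. Reg3g fell by 1.22 ± 0.28 (adjusted p = 0.025), to 568 ± 182 FPKM in Ffat mice, against 1273 ± 46.5 FPKM in FTAI mice. It missed the threshold without Ffat replicate 2 or 3 (adjusted p = 0.132 and 0.0604) or FTAI replicate 1 or 2 (0.0516 and 0.0748), and held under 9 of 12 other settings. Reg3a rose by 0.61 ± 0.14 (adjusted p = 0.0284), to 130.1 ± 25.8 FPKM in Ffat mice, against 84.5 ± 13.4 FPKM in FTAI mice. Its call was lost without Ffat replicate 1 or 2 (adjusted p = 0.0512 and 0.148), FTAI replicate 2 (0.0504) or FTAI replicate 3 (0.0675, log2 difference 0.48), and it held under 8 of 12 other settings. Without FTAI replicate 3, which stood apart, Reg3g kept its call (−1.25 ± 0.31, adjusted p = 0.0369). Reg3b averaged 1803 ± 1004 FPKM in Ffat mice and 2195 ± 170 FPKM in FTAI mice, with a difference of −0.42 (95% interval −1.19 to 0.35, adjusted p = 0.67), and −0.37 without FTAI replicate 3 (adjusted p = 0.618).

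Against Fcon mice, 1 of the 8 members passed in Ffat mice, while 4.59% of all genes did, and 4 members had non-overlapping groups, while 39.9% of all genes had them. Reg3a rose by 0.56 ± 0.14 (adjusted p = 0.0359), with 86.7 ± 4.99 FPKM in Fcon mice, and the call was lost without Ffat replicate 1 or 2 (adjusted p = 0.0595 and 0.186) or Fcon replicate 1, 2 or 3 (0.101, 0.0572 and 0.133), and held under 8 of 12 other settings. Reg3g differed by −0.98 ± 0.28 (adjusted p = 0.0579) and passed without Fcon replicate 3 (−1.27, adjusted p = 0.0257) and under 3 of 12 other settings. TAI alone in females moved none of the 8 members past the threshold in limma, where 0.756% of all genes passed. In FTAI mice Reg3a averaged 84.5 FPKM, Reg3b 2195 FPKM and Reg3g 1273 FPKM, against 86.7, 2140 and 1143 FPKM in Fcon mice, with overlapping groups for all 3. These differences turned sign without FTAI replicate 3 for Reg3a (−0.05 with it, 0.09 without it) and without Fcon replicate 3 for Reg3b (0.14 and −0.15) and Reg3g (0.24 and −0.05). Comparisons within a sex share their libraries, and the simvastatin and HFD differences were not tested against each other.

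The ratios of the neighboring Reg3 genes were taken within each library, where the scaling of the library cancels. Reg3g was 53.9, 61.5 and 80.9 times Reg3a in MT mice, against 37.0, 21.1 and 28.4 times in MTAI mice and 18.9, 24.6 and 13.8 times in Mcon mice. In females it was 6.45, 2.38 and 5.05 times Reg3a in Ffat mice, against 13.9, 14.3 and 17.6 times in FTAI mice and 11.9, 18.4 and 8.83 times in Fcon mice. MT libraries had the highest 3 ratios and Ffat libraries the lowest 3 of the series. Reg3b was 1.63, 1.995 and 1.90 times Reg3g in MT mice, against 1.42, 1.40 and 1.79 times in MTAI mice and 1.04, 1.23 and 1.17 times in Mcon mice. It was 3.97, 2.81 and 2.40 times Reg3g in Ffat mice, against 1.71, 1.55 and 1.93 times in FTAI mice and 1.72, 1.98 and 1.84 times in Fcon mice. The 3 Ffat ratios were above all others, and the 3 Mcon ratios were below all others. These ratios are built from values that were compared above and were not tested. Together the 3 Reg3 genes took 1.61% to 2.29% of the summed FPKM in MT mice, against 1.03% to 1.44% in MTAI mice and 0.691% to 1.25% in Mcon mice. The share was 0.391% to 0.928% in Ffat mice, against 0.847% to 0.912% in FTAI mice and 0.52% to 1.28% in Fcon mice. Reg3b ranked between 8 and 38 among all genes of a library, and Reg3g between 13 and 113.

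**Figure D2:**
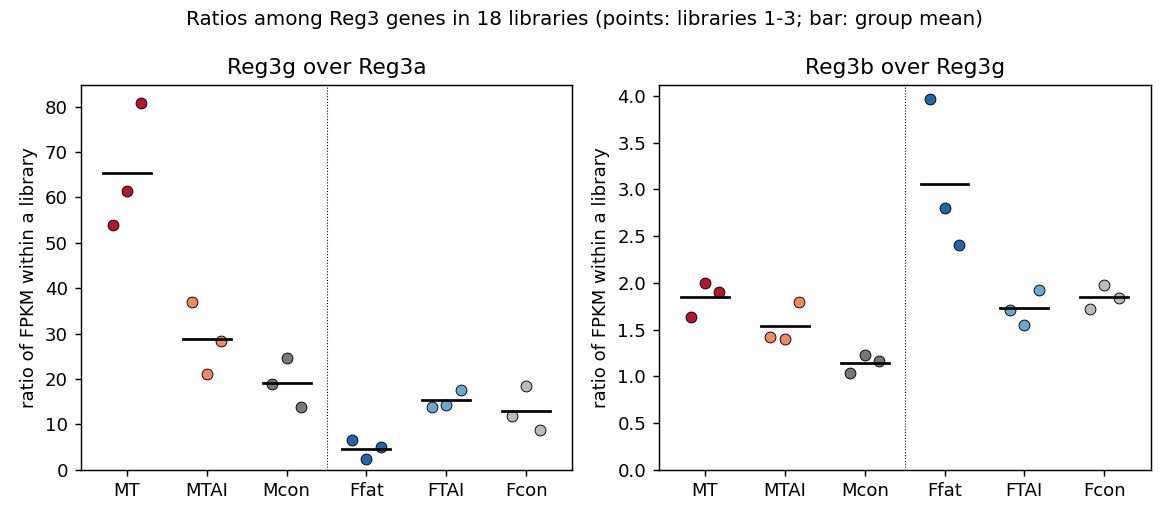
Ratio of Reg3g to Reg3a FPKM (left) and of Reg3b to Reg3g FPKM (right) within each of the 18 libraries, with points for libraries 1 to 3 of a group and bars for group means. The first ratio is highest in MT mice (53.9 to 80.9) and lowest in Ffat mice (2.38 to 6.45), and the second is highest in Ffat mice (2.40 to 3.97) and lowest in Mcon mice (1.04 to 1.23).

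Reg1, a lectin-like growth factor of regenerating tissue, varied most among mice of the same group. It had 159.4, 125 and 79.2 FPKM in MT mice, against 120.1, 147.7 and 107.2 FPKM in MTAI mice and 161.6, 213.4 and 270.4 FPKM in Mcon mice. It had 100.6, 29.9 and 63.8 FPKM in Ffat mice, against 320.5, 111.2 and 13.3 FPKM in FTAI mice and 104.9, 96.9 and 186.7 FPKM in Fcon mice. The FTAI mice thus held both the highest and the lowest value of the series. The spread within groups was 1.06 on the log2 scale, above that of 99.6% of all genes, whose median was 0.17, and Reg1 passed in none of the comparisons. Its difference in Ffat against FTAI mice was −0.45 (adjusted p = 0.853), −1.69 without FTAI replicate 3 (0.0581) and 0.55 without FTAI replicate 1 (0.726). For Reg3a this spread was 0.19, and the groups accounted for 90.3% of its variance, against 30.9% for Reg1, 64.5% for Reg3b and 85.4% for Reg3g. Some such share arises in 6 groups of 3 even without group differences, and these shares were not tested.

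By Pearson r on log2(FPKM + 1), the gene most like Reg1 across the 18 libraries was Onecut2 (0.939). Onecut2 is a transcription factor and was among the proximal small intestine markers used above. The next by Pearson r were Dock8 (0.909), Heatr5a, 4931406C07Rik and Ros1. By Spearman rho, Onecut2 (0.794) stood below 4931406C07Rik (0.884) and Dock8 (0.841). The search ran over 11759 genes, and the libraries share groups and tissue, so that the value is a description. FTAI replicate 3, with the lowest Reg1, also had the lowest Onecut2 (4.98 FPKM, against 7.29 to 19.96 FPKM in the other 17). Ffat replicate 2, with 29.9 FPKM of Reg1, had 7.29 FPKM of Onecut2. In FTAI replicate 3 the ileal genes Fabp6 and Fgf15 reached 15.6 and 1.84 FPKM, against at most 1.39 and 0.206 FPKM in the other 17, and Osr2 reached 34.3 FPKM, against 11.5 to 20.5 FPKM. Its proximal marker Fabp1 was the lowest of the series at 1334 FPKM, whereas Ada (159 FPKM, against 99.9 to 544 FPKM) and Gata4 (36.4 FPKM, against 34.8 to 54.0 FPKM) lay within the range of the others, and Cybrd1 was the highest (0.934 FPKM, against 0.230 to 0.606 FPKM). The part of the sampled site in the Reg1 values was not tested.

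**Figure D3:**
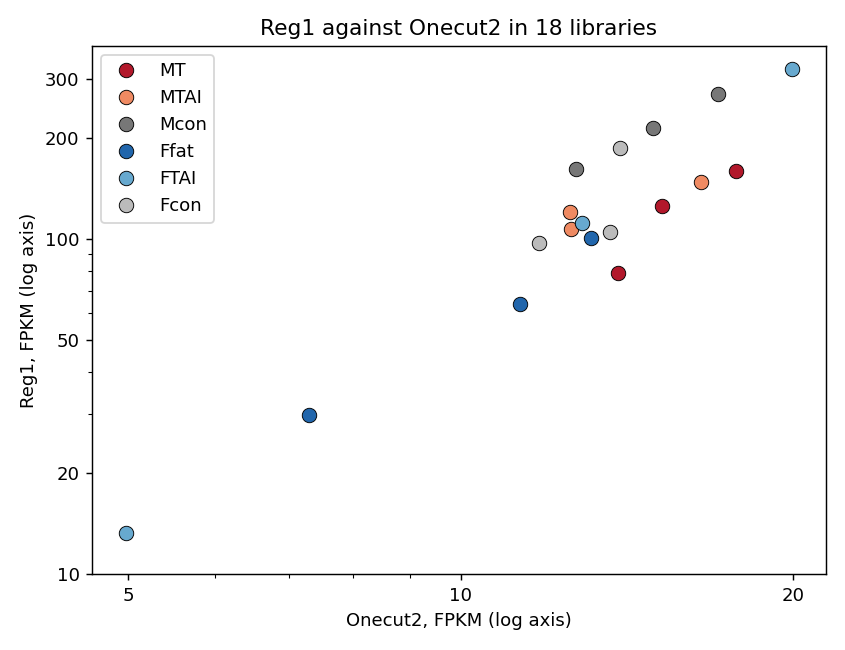
Reg1 FPKM against Onecut2 FPKM (log axes) in the 18 libraries, colored by group. FTAI replicate 3 (13.3 FPKM of Reg1, 4.98 FPKM of Onecut2) is at the lower left, followed by Ffat replicate 2 (29.9 and 7.29 FPKM), and FTAI replicate 1 (320.5 and 19.96 FPKM) is at the upper right.

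Paneth cells also make Reg3 lectins, and the order of their markers among the libraries was another one than that of Reg3g. The summed level of 10 Paneth markers was 194, 496 and 4811 FPKM in the 3 FTAI libraries, where Reg3g was 1303, 1296 and 1219 FPKM. It was 717, 1929 and 829 FPKM in Ffat mice, and 115, 213 and 95.8 FPKM in Fcon mice. Of the 10 markers, 3 passed as higher in Ffat against Fcon mice and none in the other comparisons within a sex. In males the sum was 182 to 258 FPKM in MT mice, against 446 to 574 FPKM in MTAI mice and 171 to 370 FPKM in Mcon mice, and MT mice had the most Reg3b and Reg3g. The part of Paneth cell content in the Reg3 values was not tested.

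Duox2 and Duoxa2, which act as 1 enzyme, were lowest in HFD-fed females. Duox2 had 4.36, 4.003 and 4.01 FPKM in Ffat mice, against 16.8, 17.2 and 20.95 FPKM in FTAI mice and 8.96, 12.5 and 6.83 FPKM in Fcon mice, and the 3 groups did not overlap. Duoxa2 had 1.34, 1.05 and 0.854 FPKM in Ffat mice, against 2.87, 4.65 and 8.24 FPKM in FTAI mice and 2.16, 2.19 and 1.92 FPKM in Fcon mice, again with no overlap. In males Duox2 had 17.3, 16.5 and 24.9 FPKM in MT mice, against 24.6, 13.0 and 8.51 FPKM in MTAI mice and 35.2, 18.7 and 23.1 FPKM in Mcon mice. Duoxa2 had 7.06, 5.62 and 7.08 FPKM in MT mice, against 5.52, 4.02 and 2.59 FPKM in MTAI mice and 20.5, 5.73 and 9.98 FPKM in Mcon mice. Mcon replicate 1 was the highest library for both genes. Duox2 was 1.72 to 5.84 times Duoxa2 in single libraries, with the lowest mean ratio in Mcon mice (2.44 ± 0.783) and the highest in Fcon mice (4.47 ± 1.11).

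**Figure D4:**
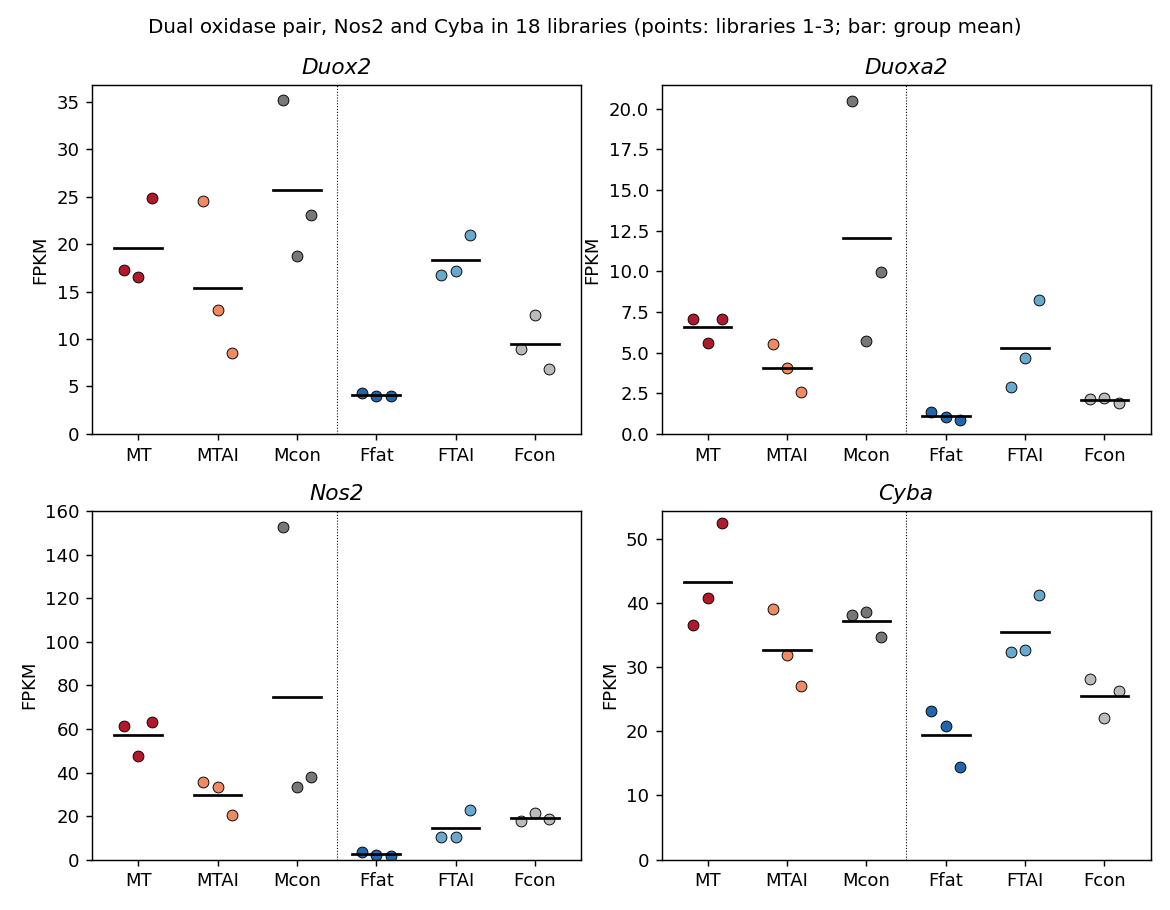
FPKM (linear axes from 0) of Duox2, Duoxa2, the nitric oxide synthase Nos2 and the oxidase subunit Cyba in each of the 18 libraries, with points for libraries 1 to 3 of a group and bars for group means. Ffat libraries are the lowest of the series for Duox2 (4.003 to 4.36 FPKM) and Nos2 (1.52 to 3.65 FPKM), and Mcon replicate 1 is the highest for Duox2 (35.2 FPKM), Duoxa2 (20.5 FPKM) and Nos2 (153 FPKM).

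In Ffat against FTAI mice, Duox2 fell by 1.91 ± 0.30 (adjusted p = 0.00209), to 4.13 ± 0.206 FPKM in Ffat mice, against 18.3 ± 2.29 FPKM in FTAI mice, a ratio of 0.225. The call held when any 1 library was left out and under all 12 other settings. Duoxa2 fell by 1.5 ± 0.35 (adjusted p = 0.0266), to 1.08 FPKM in Ffat mice, against 5.26 FPKM in FTAI mice, a ratio of 0.206. Its call was lost without Ffat replicate 1, 2 or 3 (adjusted p = 0.0723, 0.0918 and 0.0908) or FTAI replicate 2 (0.0722), and held under 10 of 12 other settings. It was also lost without FTAI replicate 3, which stood apart (−1.18 ± 0.35, adjusted p = 0.0645), where Duox2 kept its call (−1.81 ± 0.34, adjusted p = 0.00734). Against Fcon mice Duox2 differed by −0.99 ± 0.30 (adjusted p = 0.0711, past the threshold under 4 of 12 other settings) and Duoxa2 by −0.58 ± 0.35 (0.297). In Ffat mice the adipocyte markers were also low, with a summed level of 6.45 to 9.24 FPKM, against 49.9 to 150 FPKM in FTAI mice and 16.4 to 111 FPKM in Fcon mice, and 4 of the 5 tested fell in Ffat against FTAI mice. The enterocyte markers summed to 13550 to 15390 FPKM in Ffat mice, against 7816 to 10930 FPKM in FTAI mice, where 2 of 6 rose and 1 fell. Their part in the oxidase values was not tested.

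After TAI alone, the pair lay on opposite sides of the controls in the sexes. In females Duox2 averaged 18.3 FPKM in FTAI mice and 9.44 ± 2.87 FPKM in Fcon mice (log2 difference 0.92, 95% interval 0.28 to 1.55, adjusted p = 0.171). Duoxa2 averaged 5.26 FPKM in FTAI mice and 2.09 FPKM in Fcon mice (0.93, 0.19 to 1.67, adjusted p = 0.218). In males Duox2 averaged 15.4 ± 8.27 FPKM in MTAI mice and 25.7 ± 8.55 FPKM in Mcon mice (−0.78, −1.41 to −0.14, adjusted p = 0.265). Duoxa2 averaged 4.05 FPKM in MTAI mice and 12.1 ± 7.59 FPKM in Mcon mice (−1.25, −1.99 to −0.51, adjusted p = 0.0844). None of these 4 differences passed alone. Single libraries moved 3 of them past the threshold: Duox2 passed in males without MTAI replicate 1 (−1.16, adjusted p = 0.0383), Duoxa2 in males without Mcon replicate 2 (−1.65, 0.02) and Duoxa2 in females without FTAI replicate 1 (1.23, 0.0477). Without FTAI replicate 3, the female differences were 0.82 for Duox2 (adjusted p = 0.429) and 0.60 for Duoxa2 (0.605). Non-overlapping groups were seen for 2 of the 8 members in females, Duox2 and Duoxa2, while 14.4% of all genes had them, and for 3 in males, while 17% did.

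The difference of the TAI change between females and males was tested in the same fit. For Duoxa2 it was 2.18 ± 0.49 (adjusted p = 0.0397), the only 1 of the 8 members to pass, while 1.33% of all genes did. For Duox2 it was 1.70 ± 0.42 (adjusted p = 0.0633). The call for Duoxa2 was lost without Mcon replicate 1 (1.74, adjusted p = 0.0735) or 3 (0.0758), MTAI replicate 2 (0.0797) or 3 (0.11), FTAI replicate 2 (0.0713) or 3 (1.85, 0.0722), or Fcon replicate 1, 2 or 3 (0.0911, 0.0672 and 0.103), and held under 5 of 12 other settings. Duox2 passed without MTAI replicate 1 (2.08, adjusted p = 0.00941) or Fcon replicate 2 (1.90, 0.0478), and stood at 1.60 (0.119) without FTAI replicate 3.

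The pair also differed between the control mice of both sexes, where 2 of the 8 members passed, while 5.13% of all genes did. Non-overlapping groups were seen for 3 of the 8, Duox2, Duoxa2 and Saa3, while 25.8% of all genes had them. Duoxa2 was lower in Fcon mice by 1.92 ± 0.35 on the log2 scale (adjusted p = 0.00554), with 2.09 FPKM in Fcon mice and 12.1 FPKM in Mcon mice, and it held without any 1 library and under all 12 other settings. Duox2 was lower in Fcon mice by 1.34 ± 0.30 (adjusted p = 0.017), with 9.44 FPKM in Fcon mice and 25.7 FPKM in Mcon mice, and its call was lost without Mcon replicate 1 (adjusted p = 0.0694) or Fcon replicate 1 or 3 (0.0653 and 0.0876). Reg3g averaged 1143 FPKM in Fcon mice and 1724 FPKM in Mcon mice, with a difference of −0.64 (95% interval −1.23 to −0.06, adjusted p = 0.204), and it passed without Fcon replicate 2 (−0.96, 0.0494). For Reg3a and Reg3b the control groups overlapped, at 86.7 and 2140 FPKM in Fcon mice, against 90.6 and 1988 FPKM in Mcon mice. The Reg3b difference of 0.05 turned to −0.03 without Mcon replicate 1, −0.13 without Mcon replicate 3 and −0.32 without Fcon replicate 2. The comparison of the controls uses the same Fcon and Mcon libraries as the difference of the TAI change. The results for the oxidase pair in both are thus not independent. FTAI and MTAI mice overlapped for Duox2 and Duoxa2 and were not tested against each other. Duox2 averaged 18.3 FPKM in FTAI mice and 15.4 FPKM in MTAI mice, and Duoxa2 5.26 and 4.05 FPKM.

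**Figure D5:**
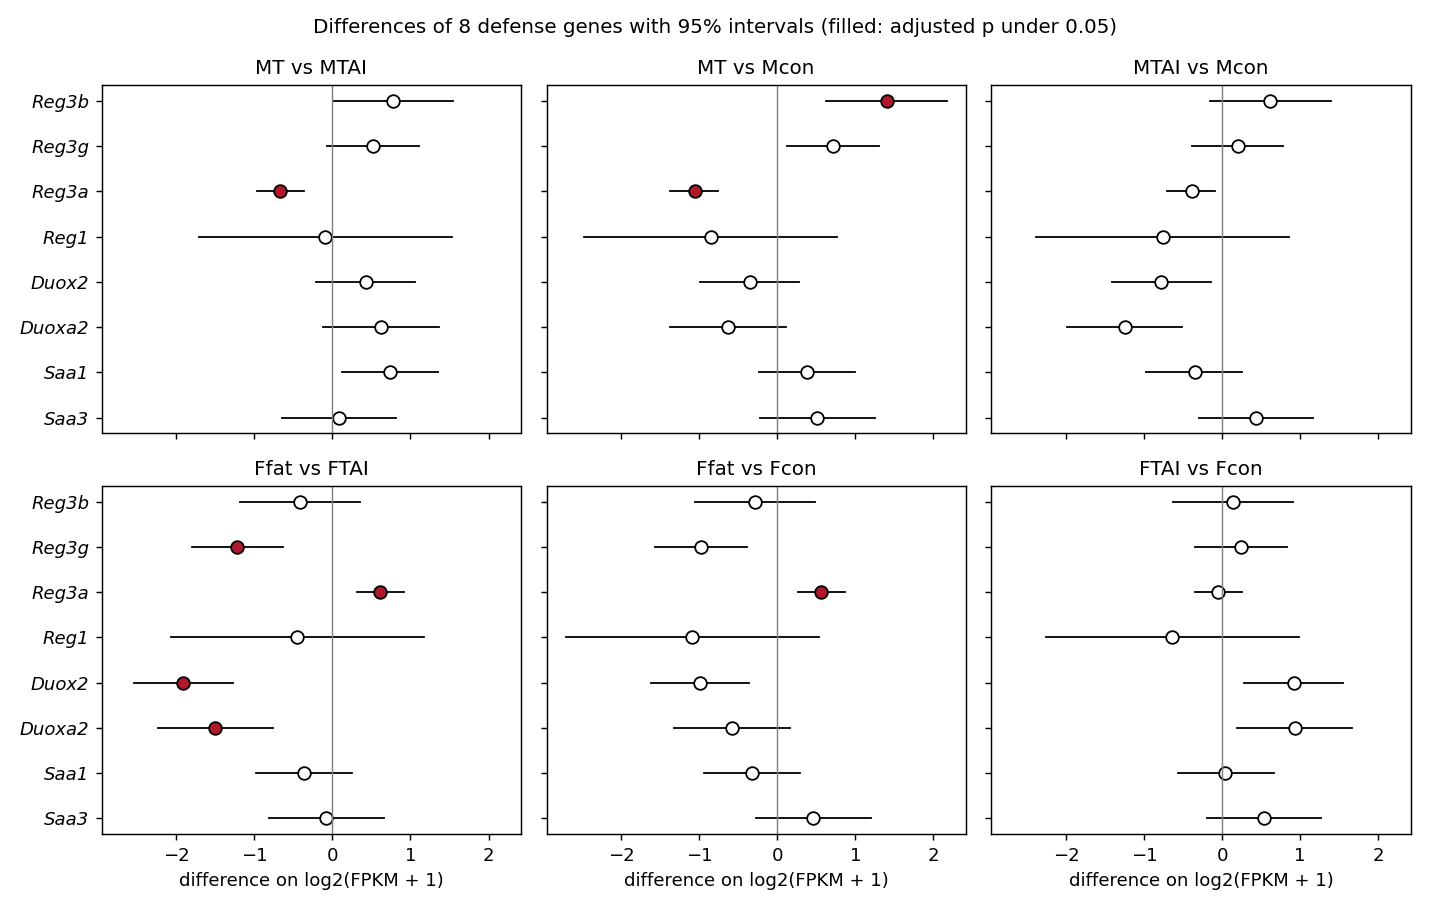
Differences on log2(FPKM + 1) between groups for the 8 members tested, with 95% intervals from limma; filled points passed an adjusted p of 0.05. Reg3a is below 0 in MT against Mcon mice (−1.06) and above 0 in Ffat against FTAI mice (0.61), and Duox2 is farthest from 0 in Ffat against FTAI mice (−1.91).

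The Saa genes were near the lower limit of these libraries. Saa1 had 1.29, 0.954 and 1.66 FPKM in MT mice, against 0.897, 0.275 and 0.0620 FPKM in MTAI mice and 1.89, 0.496 and 0.242 FPKM in Mcon mice. In females it stayed below 1 FPKM in every library, with 0.0763 to 0.173 FPKM in Ffat mice, against 0.248 to 0.923 FPKM in FTAI mice and 0.0678 to 0.762 FPKM in Fcon mice. MT libraries were above all MTAI libraries and Ffat libraries below all FTAI libraries, and no comparison passed. Saa3 had 0.853, 0.884 and 1.07 FPKM in MT mice, against 1.85, 0.409 and 0.516 FPKM in MTAI mice and 0.435, 0.197 and 0.442 FPKM in Mcon mice. It had 0.814, 2.62 and 0.782 FPKM in Ffat mice, against 0.378, 1.41 and 3.13 FPKM in FTAI mice and 0.684, 0.663 and 0.595 FPKM in Fcon mice. MT and Mcon mice did not overlap, nor did Ffat and Fcon mice, and no comparison of Saa3 passed. Saa2 was listed above 0 only in MT replicate 3 and MTAI replicate 3, at 0.0585 and 0.0568 FPKM. Saa1 came nearest in MT against MTAI mice, with a log2 difference of 0.74 (95% interval 0.12 to 1.35, adjusted p = 0.294). Missing the threshold does not show that differences are absent. The hepatocyte marker Alb was at most 1.66 FPKM, and listed at 0 in 7 libraries.

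Of 24 genes of interleukin-22 and interleukin-17 signaling to the epithelium, 16 were tested. The cytokines were close to 0: Il22 was at most 0.314 FPKM and listed at 0 in 13 of 18 libraries, Il17a at most 0.244 FPKM and Il17f at most 0.145 FPKM. In MT against Mcon mice 3 of the 16 rose and 1 fell, with a median of −0.05 beside −0.07 over all genes. Il22ra2, a soluble receptor that takes interleukin-22 away from its target cells, fell by 0.71 ± 0.14 (adjusted p = 0.00712), to 0.488 FPKM in MT mice, against 1.46 FPKM in Mcon mice. The call held when any 1 library was left out. In single libraries Il22ra2 had 0.472, 0.464 and 0.528 FPKM in MT mice, against 1.31, 1.87 and 1.19 FPKM in Mcon mice, with no overlap. None of the 16 passed in MT against MTAI mice or in any comparison of the irradiated or HFD-fed females. In Fcon against Mcon mice Nfkbiz, an inducible regulator of NF-kB targets, was lower by 0.60 ± 0.15 (adjusted p = 0.0273). The call for Nfkbiz was lost without Mcon replicate 1 or 2 (adjusted p = 0.095 and 0.104) or Fcon replicate 3 (0.136), under median ratio scaling (0.141) and with only the groups compared (0.0937).

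Of 22 genes of microbial sensing upstream of the defense genes, 16 were tested, and few passed. Nfkb2, a subunit of the alternative NF-kB pathway, fell by 0.62 ± 0.12 in MTAI against Mcon mice (adjusted p = 0.00974), to 9.18 FPKM in MTAI mice, against 14.9 FPKM in Mcon mice, and lost the call without MTAI replicate 3 (0.0662), with the most abundant transcript only (0.189) and with only the groups compared (0.15). Casp1, the inflammasome protease, fell by 0.43 ± 0.09 in MT against Mcon mice (adjusted p = 0.0117) and lost the call without MT replicate 1 or 3 (0.0579 and 0.0653) or Mcon replicate 2 (0.0604), under median ratio scaling (0.0943) and with only the groups compared (0.0636). Of the 16, 3 were lower in Fcon than in Mcon mice, among them Nfkb2 by 0.59 ± 0.12 (adjusted p = 0.00881). That call was lost under quantile normalization (0.0615) and median ratio scaling (0.08), with the most abundant transcript only (0.466) and with only the groups compared (0.0877). None passed in MT against MTAI, FTAI against Fcon or Ffat against FTAI mice.

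Among 38 other inducible defense genes of the epithelium, 25 were tested. In Ffat against FTAI mice 4 fell and 1 rose, with a median of −0.41 beside −0.01 over all genes. Nos2, the inducible nitric oxide synthase, fell by 2.14 ± 0.44 (adjusted p = 0.0144), with 3.65, 2.05 and 1.52 FPKM in Ffat mice, against 10.5, 10.4 and 22.6 FPKM in FTAI mice. Cyba, the membrane subunit shared by the Nox family oxidases, fell by 0.85 ± 0.17 (adjusted p = 0.0138), to 19.5 FPKM in Ffat mice, against 35.4 FPKM in FTAI mice. Nos2 missed the threshold without Ffat replicate 2 or 3 (adjusted p = 0.0612 and 0.0647), and Cyba without Ffat replicate 3 (0.0615). With groups weighted by their own spread and with only the groups compared, adjusted p was 0.0572 and 0.0709 for Nos2, 0.111 and 0.152 for Cyba and 0.0743 and 0.0594 for Reg4. Reg4, the family member outside the Reg cluster, rose by 1.28 ± 0.28 (adjusted p = 0.0187), with 25.3, 21.8 and 19.9 FPKM in Ffat mice, against 9.51, 6.26 and 10.5 FPKM in FTAI mice. Its call was lost without Ffat replicate 1 or 2 (adjusted p = 0.0941 and 0.063) or FTAI replicate 2 (0.09). Without FTAI replicate 3, the differences were −1.79 for Nos2 (adjusted p = 0.0407), −0.74 for Cyba (0.0385) and 1.41 for Reg4 (0.0179). Against Fcon mice both Nos2 (−2.61 ± 0.44, adjusted p = 0.00352) and Reg4 (1.58 ± 0.28, 0.00431) passed, also when any 1 library was left out. Duoxa1, whose gene overlaps the end of Duoxa2 on the other strand, had a mean of 0.00260 FPKM.

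In MT against Mcon mice 1 of the 25 rose and 1 fell. Tnfrsf21, a death receptor, rose by 0.64 ± 0.13 (adjusted p = 0.00765), to 5.14 FPKM in MT mice, against 2.94 FPKM in Mcon mice. None of the 25 passed in MT against MTAI mice, 3 fell in MTAI against Mcon mice and 1 rose in FTAI against Fcon mice. In Fcon against Mcon mice 6 were lower and none higher. Noxo1, the organizer of the oxidase Nox1, was lower in Fcon mice by 1.03 ± 0.12 (adjusted p = 0.000188), at 5.35 FPKM in Fcon mice and 11.9 FPKM in Mcon mice. Sprr2a1, a small proline-rich protein, was lower in Fcon mice by 1.68 ± 0.34 (adjusted p = 0.00942), at 105 FPKM in Fcon mice and 345 FPKM in Mcon mice, and can share reads with its copies Sprr2a2 and Sprr2a3, which passed as lower as well.

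The 7 genes of MHC class II antigen presentation, which the epithelium also induces, were all tested. In MT against Mcon mice 4 rose, with a median of 0.63 beside −0.07 over all genes. H2-Ab1 rose by 0.63 ± 0.13 (adjusted p = 0.0102), to 352 FPKM in MT mice, against 230.4 FPKM in Mcon mice, and held without any 1 library but not with only the groups compared (0.0658). Cd74, the invariant chain, rose by 0.69 ± 0.15 (adjusted p = 0.0132), and lost the call without MT replicate 1 or 3 (0.0525 and 0.0685) or Mcon replicate 3 (0.0563) and with only the groups compared (0.0934). In Ffat against FTAI mice 4 fell, with a median of −0.63. H2-DMb1 fell by 0.69 ± 0.15 (adjusted p = 0.0159) and H2-Ab1 by 0.60 ± 0.13 (0.0205), to 202.5 FPKM in Ffat mice, against 310.4 FPKM in FTAI mice. H2-DMb1 lost the call without Ffat replicate 1, 2 or 3 (adjusted p = 0.0576, 0.0612 and 0.0569) or FTAI replicate 2 (0.0704), and H2-Ab1 without the same 4 libraries (0.0752, 0.0654, 0.0674 and 0.0836). With only the groups compared both were lost (0.128 for H2-DMb1 and 0.13 for H2-Ab1), and H2-Ab1 also with groups weighted by their own spread (0.0572). Without FTAI replicate 3 they stood at −0.59 for H2-DMb1 (0.0432) and −0.52 for H2-Ab1 (0.0488). Immune cells also make these genes: 2 of 7 macrophage markers passed as higher in MT against Mcon mice, with a summed level of 59.0 to 72.2 FPKM in MT mice and 21.6 to 62.3 FPKM in Mcon mice. None of the 7 passed in Ffat against FTAI mice. Their part in the MHC values was not tested.

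The genes most like the other members across the 18 libraries were taken by Pearson r on log2(FPKM + 1), as a description over libraries that share groups. Among those most like Reg3g were Fzd4 (0.889), Adam1a, Nfkbiz (0.871) and Oxct1. Nfkbiz had 21.9, 17.8 and 19.7 FPKM in Ffat mice, the lowest group for Reg3g, against 32.8, 28.4 and 23.6 FPKM in FTAI mice, and 39.2, 37.9 and 41.2 FPKM in MT mice. For Duox2 they were Mfsd4a (0.926), Stom, Orai1, a calcium channel subunit, Ceacam1 and Slc44a4. For Saa1 they were Bmp2 (0.869), Slc5a8, Atp8b2, Arhgef3 and Cited4.

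Markers of pancreatic acinar cells, hepatocytes and neutrophils were low. The adipocyte and macrophage lists were higher, reaching 150 FPKM in FTAI replicate 2 and 77.9 FPKM in FTAI replicate 3. Their part in the Saa values was not tested. The pancreatic acinar list, which holds Reg2 and Reg3d, summed to 0.336 to 0.402 FPKM in MT mice, 0.545 to 1.34 FPKM in MTAI mice and 0.311 to 0.761 FPKM in Mcon mice, and to at most 0.659 FPKM in females, and Cpa1, Cela3b, Try5 and Amy2a5 were listed at 0 in all 18 libraries. The hepatocyte list summed to 4.20 to 7.01 FPKM in Ffat mice, against 2.70 to 3.08 FPKM in FTAI mice and 1.51 to 1.90 FPKM in Fcon mice, and to at most 3.28 FPKM in males. The neutrophil list summed to at most 2.52 FPKM, in MT replicate 1, and Mpo was listed at 0 in all 18 libraries. Goblet markers summed to 2958 to 3156 FPKM in MTAI mice, against 3958 to 5368 FPKM in Mcon mice, with 3 of 7 lower, and to 4226 to 4665 FPKM in MT mice. The tissue itself showed the enterocyte genes Vil1, at 914 to 1093 FPKM, and Sis, at 1089 to 2009 FPKM.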

How the data were processed

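RNA of 18 small intestine samples was sequenced (Trizol extraction, NEBNext Ultra RNA library kit). The authors deposited FPKM values for 55869 transcripts in 1 table. Per the submitters' processing notes, the tools were Bowtie2 2.2.8, Cuffdiff 2.1.1, StringTie 1.3.1 and HISAT2. The role of each tool, the genome build and the use of strand are not given in the sources used here.

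FPKM were summed by gene symbol and analysed as log2(FPKM + 1) in limma 3.58.1 (R 4.3.3). A gene was kept if 3 or more libraries had 1 FPKM or more of it, 11767 of 21928. The model had 1 mean for each of 6 groups, 12 residual degrees of freedom and an intensity trend, and tests were two-sided with Benjamini-Hochberg adjustment and a threshold of 0.05. The fit was tested on simulated data. No read counts were used, so that the depth behind each value is known only relative to other libraries. Alternatives were 12 other settings and leaving out each of the 18 libraries. The members and gene lists were chosen with earlier results of these data known. From each list, the genes named were at most 4 past the threshold per comparison, by smallest p, and a few genes that the rule would name are not reported here. Other genes named were chosen by level or after their values were seen. Gene positions are from GENCODE M21 and promoters from RefSeq GRCm38.p6.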

Additional observations from a re-analysis of the deposited data

Results flagged for a closer look

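The change after TAI differed between the sexes for Duoxa2, by 2.18 on the log2 scale in females minus males (limma, adjusted p = 0.0397). All 3 FTAI libraries were above the Fcon mean of 2.09 FPKM, and all 3 MTAI libraries were below the Mcon mean of 12.1 FPKM. Mcon replicate 1 (20.5 FPKM) lifts that mean, with 5.73 and 9.98 FPKM in the other Mcon libraries, still above the highest MTAI library (5.52 FPKM). The FTAI and MTAI means were 5.26 and 4.05 FPKM, with overlapping libraries.

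For Duox2 the same difference was 1.70 (limma, adjusted p = 0.0633), past no threshold. It was picked out because all 3 FTAI libraries were above the Fcon mean of 9.44 FPKM, whereas all 3 MTAI libraries were below the Mcon mean of 25.7 FPKM. Mcon replicate 1 (35.2 FPKM) lifts that mean. The other Mcon libraries (18.7 and 23.1 FPKM) lay below MTAI replicate 1 (24.6 FPKM), so that the male groups overlapped. The FTAI and MTAI means were 18.3 and 15.4 FPKM, with overlapping libraries.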

How the results depend on the processing

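The counts of members past the threshold depended on the settings. In MTAI against Mcon mice the count was 0, with 1 when groups were weighted by their own spread and 0 to 1 without 1 library. In MT against MTAI mice it was 1, with 0 under no filter, quantile normalization, median ratio scaling, no intensity trend, the most abundant transcript only and only the groups compared, and 0 to 1 without 1 library. In MT against Mcon mice it was 2, with 1 under no filter, quantile normalization, the replicate block and the most abundant transcript only, and 1 to 2 without 1 library. In FTAI against Fcon mice it was 0, and 0 to 1 without 1 library. In Ffat against FTAI mice it was 4, with 3 under no filter, quantile normalization and median ratio scaling, 1 under groups weighted by their own spread and only the groups compared, and 1 to 3 without 1 library. In Ffat against Fcon mice it was 1, with 0 under no filter and the most abundant transcript only, 2 under a mean of at least 5 FPKM and median ratio scaling, 3 under groups weighted by their own spread and only the groups compared, and 0 to 1 without 1 library. For the difference of the TAI change it was 1, with 0 under no filter, quantile normalization, median ratio scaling, groups weighted by their own spread, the replicate block, the most abundant transcript only and only the groups compared, and 0 to 2 without 1 library. In Fcon against Mcon mice it was 2, and 1 to 3 without 1 library. The cause was not tested. Counts over all genes moved with the settings as well. In Ffat against Fcon mice, 2377 genes passed with groups weighted by their own spread, against 540 in the main comparison.

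Of the 64 differences of single members, 17 changed sign under some alternative, and 0 of these passed the threshold before or after (lowest adjusted p after the change 0.58, limma). By setting, Reg1 in MT against MTAI mice stood at 0.03 under median ratio scaling. In FTAI against Fcon mice, Reg3b stood at −0.01 under median ratio scaling and Saa1 at −0.09 under quantile normalization and −0.01 under median ratio scaling. In Fcon against Mcon mice, Reg3b stood at −0.17 under quantile normalization and Reg3a at 0.05 under median ratio scaling. For the difference of the TAI change, Saa3 stood at −0.11 and −0.23 with pseudocounts of 0.1 and 0.01 and −0.02 under quantile normalization, and Reg3g at −0.06 under median ratio scaling. Over all fits without 1 library, the range in FTAI against Fcon mice was −1.64 to 0.61 for Reg1, −0.13 to 0.09 for Reg3a, −0.15 to 0.51 for Reg3b, −0.05 to 0.55 for Reg3g and −0.16 to 0.2 for Saa1. It was −0.6 to 0.01 for Saa1 in MTAI against Mcon mice, and −0.31 to 0.19 for Reg1 and −0.1 to 0.4 for Saa3 in MT against MTAI mice. It was −1.69 to 0.55 for Reg1 and −0.48 to 0.32 for Saa3 in Ffat against FTAI mice, and −0.7 to 0.09 for Reg3b in Ffat against Fcon mice. It was −0.88 to 1.37 for Reg1, −0.25 to 0.36 for Reg3g and −0.28 to 0.51 for Saa3 in the difference of the TAI change. It was −0.32 to 0.34 for Reg3b and −0.55 to 0.05 for Saa1 in Fcon against Mcon mice.

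Over all genes tested, the counts and their range over all alternatives were 247 (105 to 270) in MTAI against Mcon mice, 82 (11 to 151) in MT against MTAI mice, 632 (330 to 813) in MT against Mcon mice, 89 (0 to 1050) in FTAI against Fcon mice, 372 (47 to 561) in Ffat against FTAI mice, 540 (183 to 2377) in Ffat against Fcon mice, 157 (56 to 184) for the difference of the TAI change and 604 (239 to 659) in Fcon against Mcon mice. The 1050 and the 561 were reached without FTAI replicate 1 and FTAI replicate 3, and the 0 and the 47 with only the groups compared. The 2377 was reached with groups weighted by their own spread.

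Whether replicate numbers pair the libraries was not decided, since same-numbered pairs were not set against differently numbered ones. Of 18 same-numbered pairs, 9 deviated together with a correlation over 0.1, and the correlations ranged from −0.459 to 0.322. With the replicate number as a block, 2 member calls were lost, Reg3b in MT against Mcon mice and Duoxa2 in the difference of the TAI change (adjusted p = 0.0507). The 3 libraries a group limit the precision, and changes of the Saa genes near 1 FPKM are compressed by the pseudocount.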
